A study of Mus musculus with 6 samples.

Results

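Lipoxygenases, epoxygenases and epoxide hydrolases were examined in aorta of mice deficient in endothelial nitric oxide synthase (eNOS, the product of Nos3) and of wild-type mice of matched age. The set holds 10 of the 22180 genes with a probe set of their own on the array. They are named by their known place in arachidonic acid metabolism. That rule uses no measured value, although the members were chosen with earlier results of these data known. Each was found through probe sets whose annotation lists that gene alone, and the brightest probe set (highest mean of the 6 arrays) stands for the gene. All 10 passed the filter on dim signals (a mean of at least 4.38 log2, the 25th percentile of all probe sets), so all entered the test over 18007 genes. Total RNA (300 ng) from 3 eNOS-deficient samples, numbered 11, 15 and 19 in their titles, and 3 wild-type samples, numbered 2, 3 and 5, was hybridised to 1 Affymetrix array each. The tissue of every sample is aorta. The sources used here do not give the targeted allele, strain, sex or age, or say that each sample is a different animal. The p-values therefore reflect the spread among these arrays, which may be technical.

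Arachidonic acid is cut from membrane phospholipids and then oxidised along separate branches. In the leukotriene branch 5-lipoxygenase (Alox5), helped by its activating protein (Alox5ap), makes the unstable leukotriene A4, which leukotriene A4 hydrolase (Lta4h) turns into the leukocyte attractant leukotriene B4 and leukotriene C4 synthase (Ltc4s) into the first of the cysteinyl leukotrienes, which constrict smooth muscle and make vessels leaky. The 12- and 15-lipoxygenases (Alox12, Alox15) make hydroxy fatty acids, while cytochrome P450 epoxygenases such as Cyp2j6 and Cyp2j9 make epoxides that, as a class, relax vessels independently of nitric oxide. Soluble epoxide hydrolase (Ephx2) ends the action of those epoxides, and microsomal epoxide hydrolase (Ephx1) acts mainly on foreign epoxides.

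The arrays differed in ways the genotype labels do not cover. Nos3 itself, the targeted gene, read 7.13, 7.39 and 7.27 log2 on eNOS-deficient 11, 15 and 19 and 7.99, 7.88 and 7.36 on wild type 2, 3 and 5, a difference of -0.48 that did not pass (limma adjusted p = 0.399). The sources used here do not say where its probes lie relative to the deleted part, and the gene cannot serve as a check of the labels. Smooth muscle and endothelial markers, the defining genes of the vessel wall, were bright on all arrays (list means of 9.84 to 10.29 and of 8.13 to 8.91 log2). Adipocyte markers were brighter still (10.91 to 11.33), and skeletal muscle markers averaged 9.07 to 11.67, highest on eNOS-deficient 11. Of 4 lung epithelium markers, Sftpc read 9.92 on eNOS-deficient 19 against 4.75 to 6.46 elsewhere. Scgb1a1 read 8.99 on wild type 2 against 3.34 to 5.24 elsewhere. Squamous epithelium markers, which the vessel wall should lack, averaged 8.29 on wild type 5 against 4.72 to 6.20 on the other arrays (9 genes). B-cell markers averaged 6.45 on eNOS-deficient 11 against 8.23 to 8.96 elsewhere (4 genes). Array medians ran from 5.55 to 5.59 in eNOS-deficient and from 5.61 to 5.68 in wild-type samples. Pearson's r between arrays ran from 0.947 to 0.983 across probe sets, and at most 0.109% of the values were identical between any pair.

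As a set, the 10 genes showed 3 with higher signal on every eNOS-deficient array than on any wild-type array, Ltc4s, Alox5ap and Lta4h, all of the leukotriene branch. For the other 7 the groups overlapped, and no gene was lower throughout. Over all genes tested, the groups did not overlap for 19.5% (13.1% higher, 6.48% lower), and nothing particular to the set is read from 3 of 10. In limma's test 0 of the 10 passed an adjusted p under 0.05, where 0.0278% of all genes did (5 of 18007, 0.0111% higher and 0.0167% lower). Before adjustment, 2 had a p under 0.05, Ltc4s and Lta4h, both higher, against 11.6% of all genes (7.86% higher and 3.72% lower, that is 1415 and 669 genes, or 2027 and 388 with each array centred on its median). The median difference of the members was 0.10 log2, with 7 positive and 3 negative, against 0.04 and 56.6% positive over all genes tested. All 10 members also passed a dim filter at the 50th percentile, and the median over the 13057 genes that did so was 0.081. The count without overlap, in either direction, was 5 when eNOS-deficient 19, wild type 2 or wild type 3 was left out. In those settings 28.8%, 26.6% and 30.5% of all genes did not overlap. Among the members counted, Alox12 and Alox15 were lower without wild type 2 and Ephx1 was lower without wild type 3. The others were higher. The members' median difference was 0.21 without wild type 3, against 0.060 over all genes tested in that setting.

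**Figure D1:**
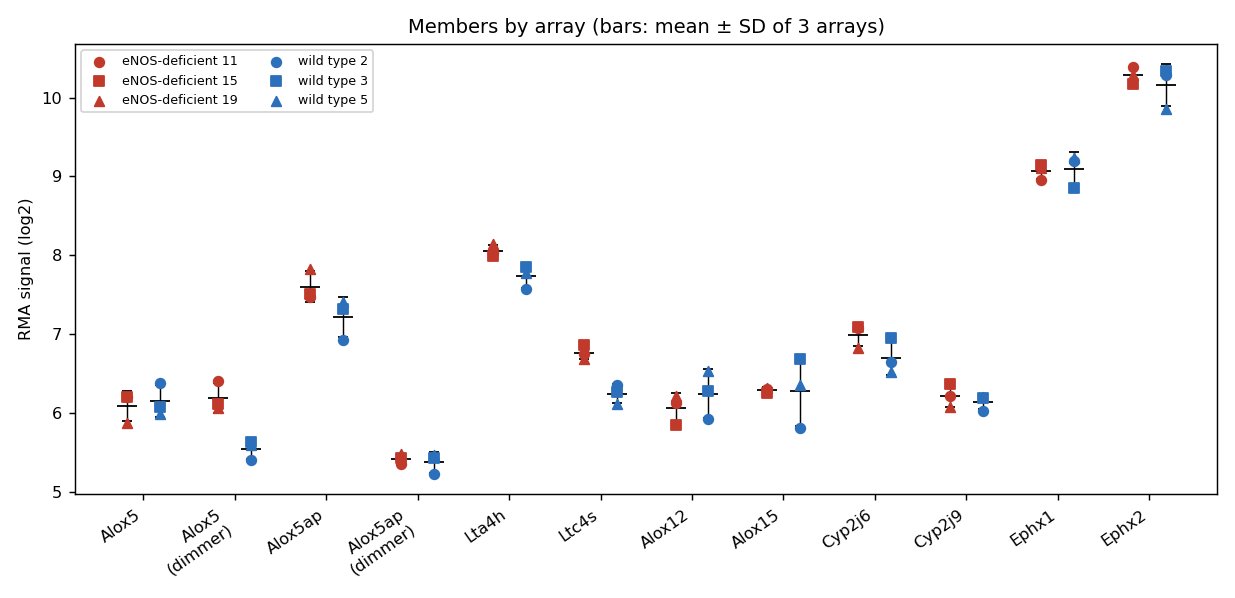
RMA signal (log2, vertical axis) of each member on each of the 6 arrays, red for eNOS-deficient and blue for wild type, with marker shapes for the sample numbers and bars for the mean ± SD of 3 arrays. Red and blue points are apart for Ltc4s, Lta4h, Alox5ap and the dimmer probe set of Alox5, and mixed for the rest.

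The leukotriene branch held the members with the widest separation, and stretches of DNA before their start sites are shown here. The genes shown are those whose arrays were apart on at least 1 probe set. They also have an entry in the set of promoter stretches used here (GRCm38.p6). Each run is the 250 bases before the start, 5′ to 3′ on the gene's strand, with capitals for GGGCGG (the GC box, bound by Sp-family factors), CCAAT and TATAAA on either strand. In all, 7 of the 10 members matched an entry in that set, and Alox5ap, Alox15 and Ephx2 did not. RefSeq's gene table, used below for the order of genes, does list them.
Alox5: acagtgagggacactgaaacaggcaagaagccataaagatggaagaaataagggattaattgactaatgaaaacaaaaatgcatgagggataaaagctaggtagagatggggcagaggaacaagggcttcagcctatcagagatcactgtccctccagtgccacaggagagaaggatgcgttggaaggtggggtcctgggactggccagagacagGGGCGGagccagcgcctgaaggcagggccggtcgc
Lta4h: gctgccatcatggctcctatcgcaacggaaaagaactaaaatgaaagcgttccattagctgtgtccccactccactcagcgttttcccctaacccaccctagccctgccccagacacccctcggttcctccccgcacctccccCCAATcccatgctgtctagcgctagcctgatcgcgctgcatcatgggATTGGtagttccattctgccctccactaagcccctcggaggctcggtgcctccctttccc
Ltc4s: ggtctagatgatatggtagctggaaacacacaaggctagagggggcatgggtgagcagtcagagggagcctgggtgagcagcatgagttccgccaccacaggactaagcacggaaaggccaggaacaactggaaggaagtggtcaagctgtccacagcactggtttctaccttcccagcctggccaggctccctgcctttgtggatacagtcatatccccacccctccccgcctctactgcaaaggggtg
The stretches lie at chr6:116461179-116461428 (minus strand), chr10:93453146-93453395 (plus strand) and chr11:50238533-50238782 (minus strand). Alox5 holds 1 GC box and Lta4h 2 CCAAT boxes, while Ltc4s holds none of these letters in this window. Of 32851 such stretches, 32.7% hold GGGCGG, 33.9% CCAAT and 12.4% TATAAA. The GC content was 52.8% for Alox5, 58.8% for Lta4h and 57.6% for Ltc4s, against a median of 52.4%.

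Ltc4s, the enzyme that joins glutathione to leukotriene A4 and thereby commits it to the cysteinyl leukotrienes, gave the clearest separation on a gene's brightest probe set. It read 6.75, 6.86 and 6.69 log2 on eNOS-deficient 11, 15 and 19 and 6.35, 6.26 and 6.12 on wild type 2, 3 and 5. The lowest eNOS-deficient array lay 0.34 above the highest wild-type array. The means were 6.77 ± 0.087 (SD, n = 3) and 6.25 ± 0.12, a difference of 0.52 log2 (standard error 0.12, 95% interval 0.24 to 0.81, 1.43-fold). This did not pass over all genes (limma adjusted p = 0.243, unadjusted p = 0.00331), and a two-sided exact permutation test gave p = 0.1, the smallest that 3 against 3 allows. Without each array in turn the difference ran from 0.46 to 0.58.

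Lta4h, which makes leukotriene B4 from the same substrate, read 8.03, 7.99 and 8.14 on the eNOS-deficient arrays and 7.57, 7.85 and 7.78 on the wild-type arrays. The groups were apart, by 0.14 log2, with wild type 2 the lowest. The difference was 0.32 log2 (standard error 0.13, 95% interval 0.03 to 0.62) and did not pass (limma adjusted p = 0.396, exact permutation p = 0.1).

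Alox5ap, the membrane protein that hands arachidonic acid to 5-lipoxygenase, read 7.48, 7.50 and 7.83 in eNOS-deficient and 6.92, 7.32 and 7.41 in wild-type aorta. The groups were apart by 0.07 log2 only, and wild type 2 was the lowest again. The difference was 0.39 log2 (standard error 0.17, 95% interval -0.02 to 0.79, limma adjusted p = 0.445), and it was 0.24 without wild type 2. A second, dimmer probe set of Alox5ap read 5.35, 5.43 and 5.48 against 5.23, 5.43 and 5.47. There the groups overlapped, with a difference of 0.04. After repeated quantile normalization the brighter probe set overlapped too.

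Alox5, the lipoxygenase itself, gave unlike values on its 2 probe sets. The brighter read 6.20, 6.20 and 5.87 in eNOS-deficient and 6.39, 6.08 and 5.99 in wild-type aorta, overlapping, with a difference of -0.06 log2 (standard error 0.16, 95% interval -0.43 to 0.32, limma adjusted p = 0.921). The dimmer read 6.40, 6.11 and 6.06 against 5.40, 5.63 and 5.59. On that probe set every eNOS-deficient array lay at least 0.43 above every wild-type array, wider than for any member's brightest probe set. Its difference was 0.65 log2 (standard error 0.14, 95% interval 0.32 to 0.98, 1.57-fold), which did not pass when all 19031 single-gene probe sets above the dim filter were tested (limma adjusted p = 0.225, unadjusted p = 0.00219). Among those probe sets 12.8% were higher without overlap and 7.7% were higher at an unadjusted p under 0.05. The mean of both probe sets differed by 0.30. The means over the 6 arrays, 6.12 and 5.87, are close, so the rule of the brightest probe set decides the sign reported for this gene. What part of the transcript each probe set reads was not tested.

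**Figure D2:**
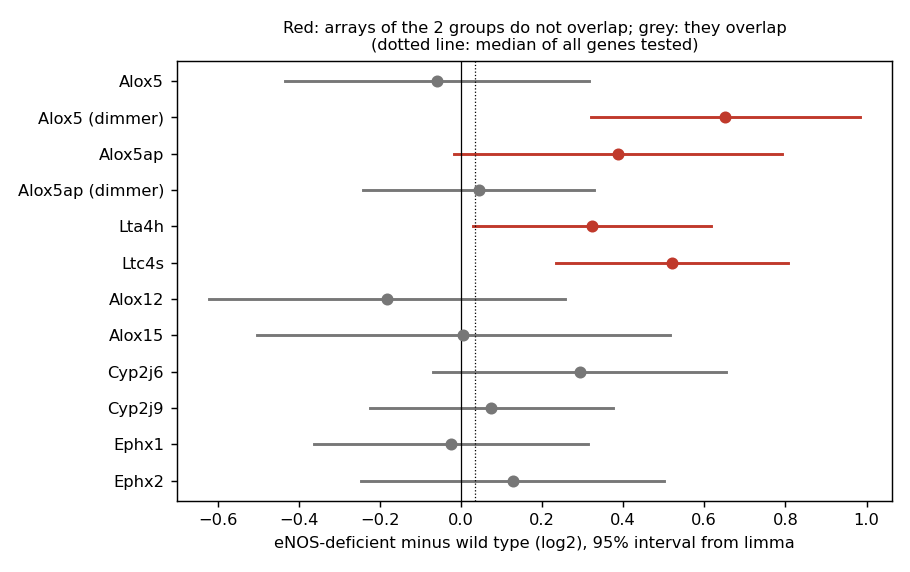
Difference in mean signal (log2, eNOS-deficient minus wild type, horizontal axis) with limma's 95% interval for the 10 members and both dimmer probe sets. Intervals of Ltc4s (0.24 to 0.81), Lta4h and the dimmer Alox5 probe set lie above 0, and all others include it.

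The steps around the leukotriene synthases were listed beside them. Dpep1, the dipeptidase that turns leukotriene D4 into leukotriene E4, read 10.69, 10.32 and 11.11 in eNOS-deficient and 9.13, 9.26 and 9.60 in wild-type aorta. The groups were far apart, and the difference of 1.37 log2 (standard error 0.23, 2.59-fold) had the smallest p of the pathway genes (limma adjusted p = 0.198). Of the alternatives run it passed with array weights (limma adjusted p = 0.0477) and with no other, over a range of adjusted p from 0.0477 to 0.486. Array weights called 119 of 18007 genes (94 higher, 25 lower), against 5 without them. Ggt5, the gamma-glutamyl transferase that makes leukotriene D4 from C4, read 6.48, 6.58 and 6.57 against 6.42, 5.68 and 5.94, apart but with wild type 2 close (difference 0.53, adjusted p = 0.376). Cysltr1, the main receptor for leukotriene D4, read 6.59, 6.47 and 6.54 against 6.26, 5.88 and 5.85, also apart (difference 0.53, adjusted p = 0.289). Other genes around this chain went either way, and none of those named next had an unadjusted p under 0.05. The second receptor Cysltr2 differed by -0.44 and overlapped. Mgst2, which can also make leukotriene C4, read 6.54 ± 0.26 against 6.80 ± 0.094, with groups apart by only 0.006 log2 (limma adjusted p = 0.559). Dpep2, a related dipeptidase, differed by -0.57 and overlapped. The leukotriene B4 receptor Ltb4r1 differed by -0.20 and Abcc1, which exports leukotriene C4, by -0.08, both overlapping. Cytosolic phospholipase A2 (Pla2g4a), which supplies the substrate, read 7.32 ± 0.21 against 7.08 ± 0.11 and overlapped. The related glutathione transferase Mgst3 (0.24) and the leukotriene B4 hydroxylase Cyp4f18 (0.08) also had positive differences and overlapped.

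In all, 52 further genes of the pathway were listed by role, 47 had a probe set of their own (Cyp2c44 as Cyp2c23) and 35 passed the dim filter. In limma 0 of 35 passed an adjusted p under 0.05. At an unadjusted p under 0.05 there were 4 higher (Dpep1, Cysltr1, Cyp4f16 and Ggt5) and 2 lower (Cyp2c39 and Cyp2c54), or 17.1% against 11.6% of all genes. The groups did not overlap for 4 higher and 4 lower, or 22.9% against 19.5%. By role, unadjusted p under 0.05 was met by 0 of 6 phospholipases, 0 of 3 other lipoxygenases, 1 of 6 receptors, 2 of 8 processing and clearance genes, 2 of 8 other CYP2 genes, 1 of 3 omega-hydroxylases and 0 of 1 epoxide hydrolase. The median difference of the 35 genes was -0.08, with 13 positive and 22 negative, against 0.04 and 56.6% positive over all genes tested.

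**Figure D3:**
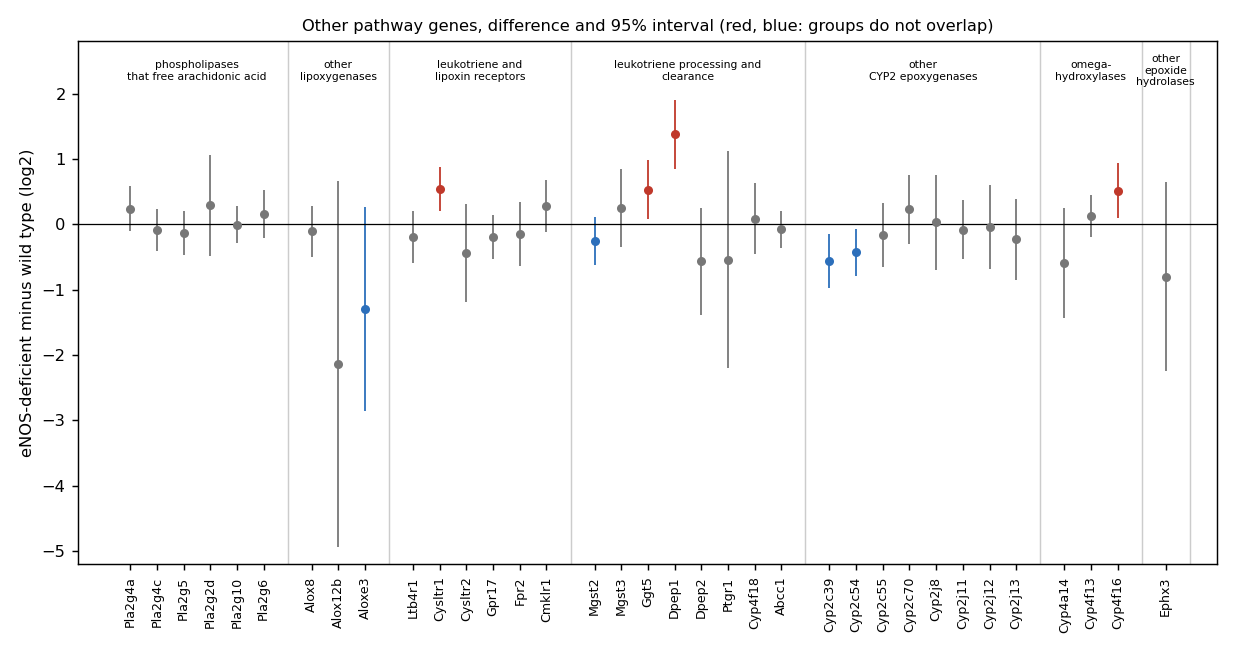
Difference (log2, eNOS-deficient minus wild type, vertical axis) with limma's 95% interval for the 35 other pathway genes tested, grouped by role. Dpep1 at 1.37 stands highest, and Alox12b and Aloxe3, with wide intervals, stand lowest.

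Alox12 and Alox15 showed no separation. The platelet-type Alox12 read 6.13, 5.85 and 6.22 in eNOS-deficient and 5.92, 6.29 and 6.54 in wild-type aorta. The groups overlapped, and wild type 5 was the highest. The difference was -0.18 log2 (standard error 0.19, 95% interval -0.62 to 0.26, limma adjusted p = 0.752), and it was -0.04 without wild type 5 and -0.35 without wild type 2. Alox15, the lipoxygenase of resident macrophages and eosinophils, read 6.31, 6.25 and 6.32 in eNOS-deficient aorta, with an SD of 0.037. In wild-type aorta it read 5.81, 6.69 and 6.36, so the wild-type arrays lay both below and above. Its difference of 0.01 log2 (95% interval -0.50 to 0.52, limma adjusted p = 0.996) became -0.23 without wild type 2 and 0.21 without wild type 3. RefSeq's table places both genes on chromosome 11 with 1 protein-coding gene between them.

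Relatives of these lipoxygenases that act in the epidermis were far brighter on wild type 5 than on the other arrays. Alox12b, which starts the making of the skin's water barrier, read 10.14 on wild type 5 and between 4.69 and 5.84 on the other 5 arrays. Aloxe3, its partner enzyme, read 7.70 on wild type 5 and between 4.61 and 5.31 elsewhere. Aloxe3 was lower on every eNOS-deficient array, with groups apart by 0.12 log2, whereas Alox12b overlapped. The epoxide hydrolase Ephx3 was also highest on wild type 5, with 8.49 against 5.92 to 6.18 elsewhere. So was Ptgr1, which inactivates leukotriene B4 (8.26, against 5.25 to 5.88). Wild type 5 is also the array on which squamous epithelium markers stood at 8.29, against 4.72 to 6.20 elsewhere. Without wild type 5 the differences shrank from -2.14 to -0.56 for Alox12b and from -1.30 to -0.43 for Aloxe3. That of Ephx3 went from -0.81 to 0.01 and that of Ptgr1 from -0.54 to 0.40.

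Cyp2j6 and Cyp2j9, the epoxygenases, are neighbours on chromosome 4 with 0 protein-coding genes between them in RefSeq's table. Cyp2j6 read 7.07, 7.09 and 6.83 in eNOS-deficient and 6.65, 6.95 and 6.52 in wild-type aorta. The groups overlapped only through eNOS-deficient 19 and wild type 3. The difference was 0.29 log2 (standard error 0.15, 95% interval -0.07 to 0.65, limma adjusted p = 0.507). Cyp2j9 read 6.21, 6.37 and 6.08 against 6.03, 6.19 and 6.21, overlapping, with a difference of 0.08 (95% interval -0.22 to 0.37, adjusted p = 0.868). Of the Cyp2c epoxygenases, Cyp2c39 read 5.42 ± 0.28 against 5.98 ± 0.18 and Cyp2c54 4.34 ± 0.15 against 4.77 ± 0.23, both lower on every eNOS-deficient array and not past the test (adjusted p = 0.325 and 0.376). Cyp2c55 overlapped at 9.88 ± 0.29 against 10.04 ± 0.30. Cyp2c54 lies close to the dim filter, so the size of its difference is uncertain. Cyp4f16, of the family of omega-hydroxylases, read 5.95 ± 0.081 against 5.43 ± 0.34 and was higher throughout (difference 0.52, adjusted p = 0.370).

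The epoxide hydrolases were bright and showed no separation. Ephx2, the soluble enzyme, read 10.39, 10.18 and 10.29 in eNOS-deficient and 10.28, 10.33 and 9.86 in wild-type aorta. Apart from the low wild type 5 the groups were mixed, and the difference of 0.13 log2 (standard error 0.16, 95% interval -0.25 to 0.50, limma adjusted p = 0.806) was -0.02 without that array. Ephx1, the microsomal enzyme, read 8.95, 9.15 and 9.11 against 9.19, 8.86 and 9.24. The eNOS-deficient arrays lay inside the wider wild-type range, with a difference of -0.02 log2 (95% interval -0.36 to 0.31, adjusted p = 0.966). These intervals still hold differences of up to 0.50 log2 for Ephx2 and -0.36 for Ephx1.

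**Figure D4:**
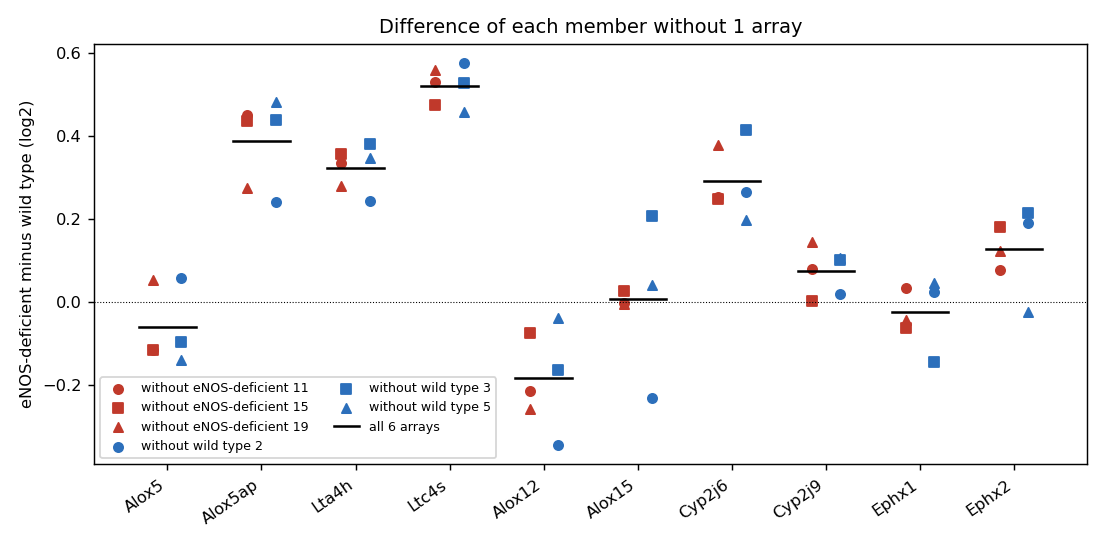
Difference (log2, eNOS-deficient minus wild type, vertical axis) of each member with all 6 arrays (black line) and without 1 array (red without an eNOS-deficient array, blue without a wild-type array). Ltc4s (0.46 to 0.58), Lta4h, Alox5ap, Cyp2j6 and Cyp2j9 stayed above 0 in each and Alox12 below it, while Alox5, Alox15, Ephx1 and Ephx2 crossed it.

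Cell types known to carry leukotriene enzymes were followed through their markers. In tissue RNA, fewer cells of a type and less RNA per cell cannot be told apart. Macrophage markers averaged 8.30, 8.30 and 8.65 log2 on the eNOS-deficient arrays and 7.47, 7.59 and 7.79 on the wild-type arrays, apart by group, with 10 of 12 genes apart as well. Mast cell markers averaged 6.47, 6.81 and 6.65 against 6.10, 6.22 and 6.39, apart too, with 3 of 8 genes higher throughout: the proteases Mcpt4, Cma1 and Tpsb2. Of their defining genes Cpa3 read 9.58 ± 0.46 against 8.66 ± 0.71, overlapping. The stem cell factor receptor Kit (7.32 ± 0.30 against 7.51 ± 0.33) and the histamine-making enzyme Hdc (5.59 ± 0.023 against 5.70 ± 0.27) overlapped with negative differences. The receptor genes Ms4a2 (4.73 ± 0.12 against 4.83 ± 0.23) and Fcer1a (below the dim filter) were dim. Neutrophil markers averaged 4.86 to 5.74 against 4.87 to 5.18 and platelet markers 7.38 to 8.03 against 7.11 to 8.28, both overlapping. Eosinophil markers averaged 4.28 to 4.47 against 4.57 to 4.64, apart in the opposite direction, with 3 of 4 genes lower throughout. These means are close to the dim filter. Fibroblast markers averaged 9.69 to 9.97 against 8.91 to 9.58, apart as well, with 6 of 6 differences positive and 3 genes apart. Macrophage, fibroblast and mast cell means thus differed in the same direction as Ltc4s, Alox5ap and Lta4h (by 0.80, 0.62 and 0.41 log2, against 0.52, 0.39 and 0.32). Squamous epithelium and eosinophil means, both apart by group, differed the other way (-1.71 and -0.24). The part of these cell types in the members' differences was not tested. Taken relative to the macrophage mean of the same array, which lowers every gene's difference by 0.80, Alox5ap and Lta4h differed by -0.41 and -0.47 log2 without overlap, as did Alox5, Alox12, Alox15, Cyp2j9 and Ephx1. Ltc4s (-0.28) and the dimmer Alox5 probe set (-0.14) overlapped. Relative to the mast cell mean, which lowers every difference by 0.41, Alox5ap (-0.02), Lta4h (-0.08) and Ltc4s (0.12) all overlapped. Relative to the squamous epithelium mean, which raises every difference by 1.71, the same genes differed by 2.10, 2.04 and 2.23 without overlap. Each such value carries the list's own difference, and which cells express these genes was not tested.

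**Figure D5:**
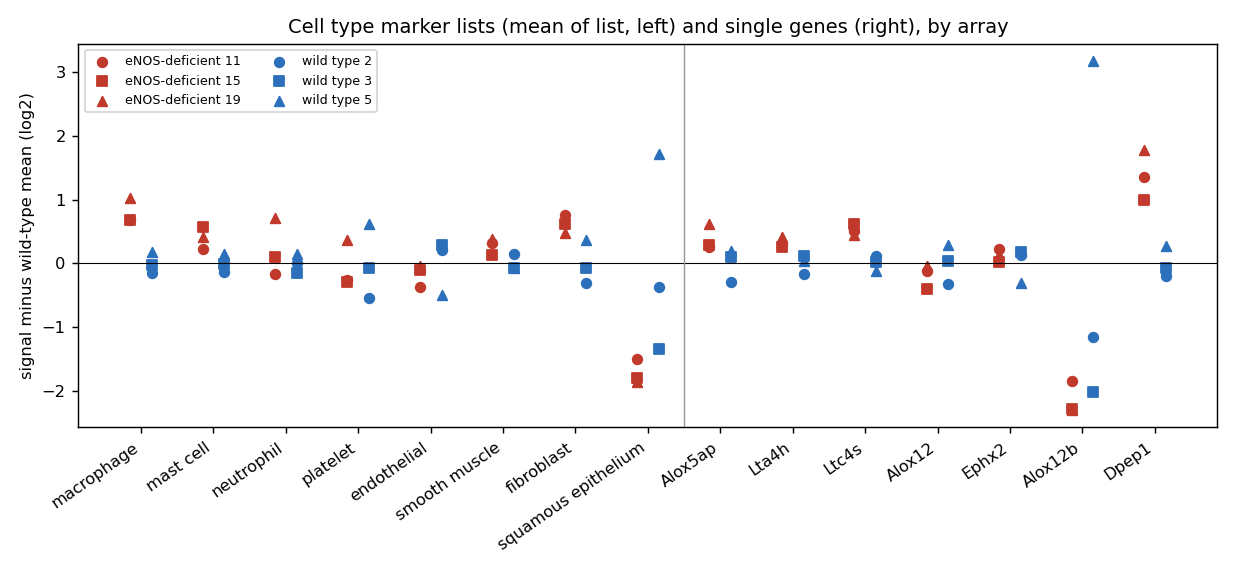
Signal minus the wild-type mean (log2, vertical axis) on each array, for the mean of 8 marker lists (left of the line) and for single genes (right of it). Macrophage, fibroblast and mast cell lists are higher on all eNOS-deficient arrays, as are Alox5ap, Lta4h, Ltc4s and Dpep1. The squamous epithelium list and Alox12b are highest on wild type 5.

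Among all genes tested, those whose pattern over the 6 arrays lay closest to the members with the largest spread were found by the root-mean-square difference of values centred on each gene's mean. For Ltc4s these were Wnt16, Lipt1 and Lgals12 (0.04, 0.04 and 0.05 log2). Lgals12 read 10.72, 10.90 and 10.62 in eNOS-deficient and 10.36, 10.34 and 10.08 in wild-type aorta, the same order of the 6 arrays as Ltc4s. For Alox5ap they were Cacybp, Fundc1 and Rhoj (0.06 for each), all lowest on wild type 2 and highest on eNOS-deficient 19. For Alox15 they were Pou4f3, B3gnt6 and Pcyt1b (0.06, 0.07 and 0.08), all lowest on wild type 2 and highest on wild type 3. With 6 arrays and 18007 genes such likeness is a description of these arrays only.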

How the data were processed

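Aortic RNA of 3 samples per genotype was measured, on 1 array a sample. The authors' deposited values are RMA signals on a log2 scale, made in Affymetrix Expression Console 1.3.1 according to the submitters' processing notes, and were kept unchanged. RMA's quantile step is meant to even out total signal, although array medians still differed slightly between the groups. Scanner values were not used here, and the probe summary was not repeated.

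Of 41345 probe sets, 23521 list 1 gene symbol, 1814 several and 16010 none. The brightest probe set stood for each of 22180 genes. Genes under the 25th percentile of probe set means (4.38 log2) were left out. The remaining 18007 entered 1 linear model in limma 3.58.1 under R 4.3.3 (eBayes, two-sided, Benjamini-Hochberg at 0.05), and single values by exact permutation. The median standard error of a difference was 0.157 log2, and the number of arrays limits the precision.

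Members, pathway lists and marker lists were chosen with earlier results of these data known. Genes named are the 10 members, the 8 pathway genes of smallest p, further pathway genes for their role, Nos3, markers, and the 3 nearest genes to each of the 3 members of largest spread, predicted and small RNA genes passed over. Alternatives were other dim filters, a robust fit with an intensity trend, averaging over probe sets, centring on medians, a second quantile normalization, weights for arrays and arrays left out. The dimmer probe sets of Alox5 and Alox5ap were added after seeing the data. The fit was tested on simulated data.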

Additional observations from a re-analysis of the deposited data

How the results depend on the processing

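No member passed an adjusted p under 0.05 under any of the 15 alternatives. Ltc4s, Lta4h, Alox5ap, Cyp2j6, Cyp2j9 and Alox12 kept their direction in all of those run for them, with limma adjusted p of 0.0628 to 0.600 for Ltc4s. The number of members without overlap, in either direction, ran from 3 to 5 over the single arrays left out, where 26.4% to 35.3% of all genes did not overlap. It was 2 after repeated quantile normalization, where 15.9% did not. The median difference of the members was 0.17 with probe sets averaged, against 0.034 over all genes tested. It was 0.17 with arrays centred on their medians, against 0.10 over all genes. Over single arrays left out it ran from 0.076 to 0.21, against 0.0013 to 0.060 over all genes. With array weights 1 pathway gene passed, Dpep1 (1.3, adjusted p = 0.0477), as did 119 of all genes.

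Alox5 turned positive with the mean of its probe sets (0.30), with median centring (0.0060) and on its dimmer probe set (0.65), and ran from -0.14 to 0.057 over single arrays left out and was -0.20 without eNOS-deficient 11 and wild type 5 together. Ephx1 turned positive with median centring (0.041), with array weights (0.056) and without those 2 arrays (0.11), with -0.14 to 0.047 over single arrays left out. Ephx2 turned negative with array weights (-0.033) and without those 2 arrays (-0.073), with -0.023 to 0.21 over single arrays left out. Alox15 ran from -0.23 to 0.21 over single arrays left out. Median centring added 0.065 to the difference of every gene checked, and the dimmer probe set is another measurement. The cause of the other turns was not tested. No paired analysis was possible because the groups share no sample numbers. Signals near 4.38 log2, such as Cyp2c54, limit what can be said of their differences.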
